A study of Macaca mulatta with 24 samples.

Results

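The cytotoxic granule genes are the genes whose products cytotoxic T cells and natural killer (NK) cells store in secretory granules, or display, to kill a target cell. They were chosen by name as 10 genes: the granzymes GZMA, GZMB, GZMK and GZMM, and PRF1, GNLY, NKG7, FASLG, CTSW and CST7. Of these, 8 had at least 1 probe that the scanner output lists under the gene's own name, in all 13 probes of 43603 on the array. GZMA and GZMM had none, but 1 probe carried a GZMA accession and 3 probes were described as granzyme M. Values of these 4 probes are given as well, and the counts cover the 8 genes found by name unless all 10 are stated. All 17 probes were well above background on all 24 arrays, and none was saturated.

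RNA of whole blood from rhesus macaques was measured on one-colour arrays before and after a single total body irradiation with 4 Gy. The pre-irradiation group (0 Gy, day 0) had 7 arrays, and the groups taken after 4 Gy had 4, 6 and 7 arrays on days 3, 5 and 7. The study's methods place the pre-irradiation blood draw for RNA 3 days before the irradiation and not on day 0. The labels call the radiation X-rays and the study's methods name a cobalt source, and the labels give no ages. All groups hold whole blood of males and females depleted of globin RNA, the same numbered animals were sampled repeatedly, and no array of unirradiated animals sampled on the later days was analysed here. Males and females numbered 4 and 3 before irradiation, 3 and 1 at day 3, 4 and 2 at day 5, and 4 and 3 at day 7. The labels speak of 8 irradiated animals while the replicate numbers run from 1 to 7, and each number was read as 1 animal. Day 3 holds numbers 1, 2, 4 and 7, and day 5 lacks number 5. The arrays lay on 6 slides scanned in 2 sessions, and all arrays of day 3 and day 5 but only 1 pre-irradiation array were in session 2. Radiation and scan session therefore can hardly be told apart on those days. At day 7, 6 arrays shared session 1 with 6 pre-irradiation arrays.

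A cytotoxic cell docks on its target and empties its granules into the contact zone. Perforin, encoded by PRF1, opens the target membrane and lets the granzymes, a family of serine proteases, reach the cytosol, where they cleave proteins that trigger death. Granulysin, encoded by GNLY, permeabilises membranes including those of microbes, NKG7 is a membrane protein of the granules, CTSW and CST7 encode a papain-like protease and an inhibitor of lysosomal cysteine proteases, and FASLG encodes the ligand of the death receptor FAS. GZMB and PRF1 mark fully armed killer cells and NK cells, and GZMK marks memory-type CD8 T cells.

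The probes were 60-base oligonucleotides, and where a gene had several they are lettered by brightness. The probe sequences that the results turn on are those of the granzymes that were compared with each other and those of NKG7, a gene whose probes gave different sizes of change. GZMK was measured by 1 probe at chr6:52681236-52681295 (rheMac2, plus strand).
GZMK: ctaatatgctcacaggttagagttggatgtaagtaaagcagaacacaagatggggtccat
The GZMB probes lie on the minus strand at chr7:87509990-87510049 (GZMB-a) and chr7:87510026-87510085 (GZMB-b), and the capitals mark the 24 bases they share.
GZMB-a: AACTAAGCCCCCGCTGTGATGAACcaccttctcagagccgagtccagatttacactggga
GZMB-b: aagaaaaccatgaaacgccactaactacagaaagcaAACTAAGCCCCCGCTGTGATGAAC
The NKG7 probes lie on the minus strand at chr19:57462972-57463031 (NKG7-a), chr19:57463594-57463653 (NKG7-b) and chr19:57462934-57462993 (NKG7-c), and the capitals mark the 22 bases that NKG7-a and NKG7-c share.
NKG7-a: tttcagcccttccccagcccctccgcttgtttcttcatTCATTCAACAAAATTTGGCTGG
NKG7-b: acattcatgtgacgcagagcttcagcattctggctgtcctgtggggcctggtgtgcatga
NKG7-c: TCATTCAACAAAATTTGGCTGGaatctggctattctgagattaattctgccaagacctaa
The scanner output gives no position for the granzyme M probes. They start at bases 313 (GZMM-a), 177 (GZMM-b) and 73 (GZMM-c) of the transcript model they were designed on, and they do not overlap there.
GZMM-a: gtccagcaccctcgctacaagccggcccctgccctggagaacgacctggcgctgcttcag
GZMM-b: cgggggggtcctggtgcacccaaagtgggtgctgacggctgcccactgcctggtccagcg
GZMM-c: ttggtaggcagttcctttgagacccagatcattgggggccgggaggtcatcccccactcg
The other genes lie at chr6:52756524-52756583 (GZMA), chr9:66410965-66411024 (PRF1), chr13:86273861-86273920 (GNLY), chr10:58147018-58147077 (CST7) and chr14:8570961-8571020 (CTSW, minus strand). FASLG-a lies at chr1:202363513-202363572, and FASLG-b and FASLG-c start 1 base apart at chr1:202362902-202362961 and chr1:202362903-202362962. Positions within exons or untranslated parts were not analysed here.

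Levels below are log2 of the processed signal after each array was shifted by 1 constant, and a change is the difference of the group means on that scale with its standard error (SE). A gene was represented by its brightest probe and was called when limma's Benjamini-Hochberg adjusted p, over all probes tested (up to 27138), was under 0.005. At day 3, 1 of the 8 genes was called lower (GZMK) and 0 were called higher, where over all named genes 7.58% were called lower and 5.95% higher. At day 5, 0 of 8 were called, where 9.11% of all named genes were lower and 6.24% higher. At day 7, 0 of 8 were called, where 7.18% were lower and 2.67% higher. An unadjusted p under 0.05 was met by 2, 1 and 1 of the 8 genes on days 3, 5 and 7. The median change of the 8 genes was 0.40, 0.12 and 0.10 on these days, and the medians over all named genes were 0, 0 and -0.01. In whole blood, fewer cells of a type and less RNA per cell cannot be told apart, and every level is relative to the other RNA of the sample.

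**Figure D1:**
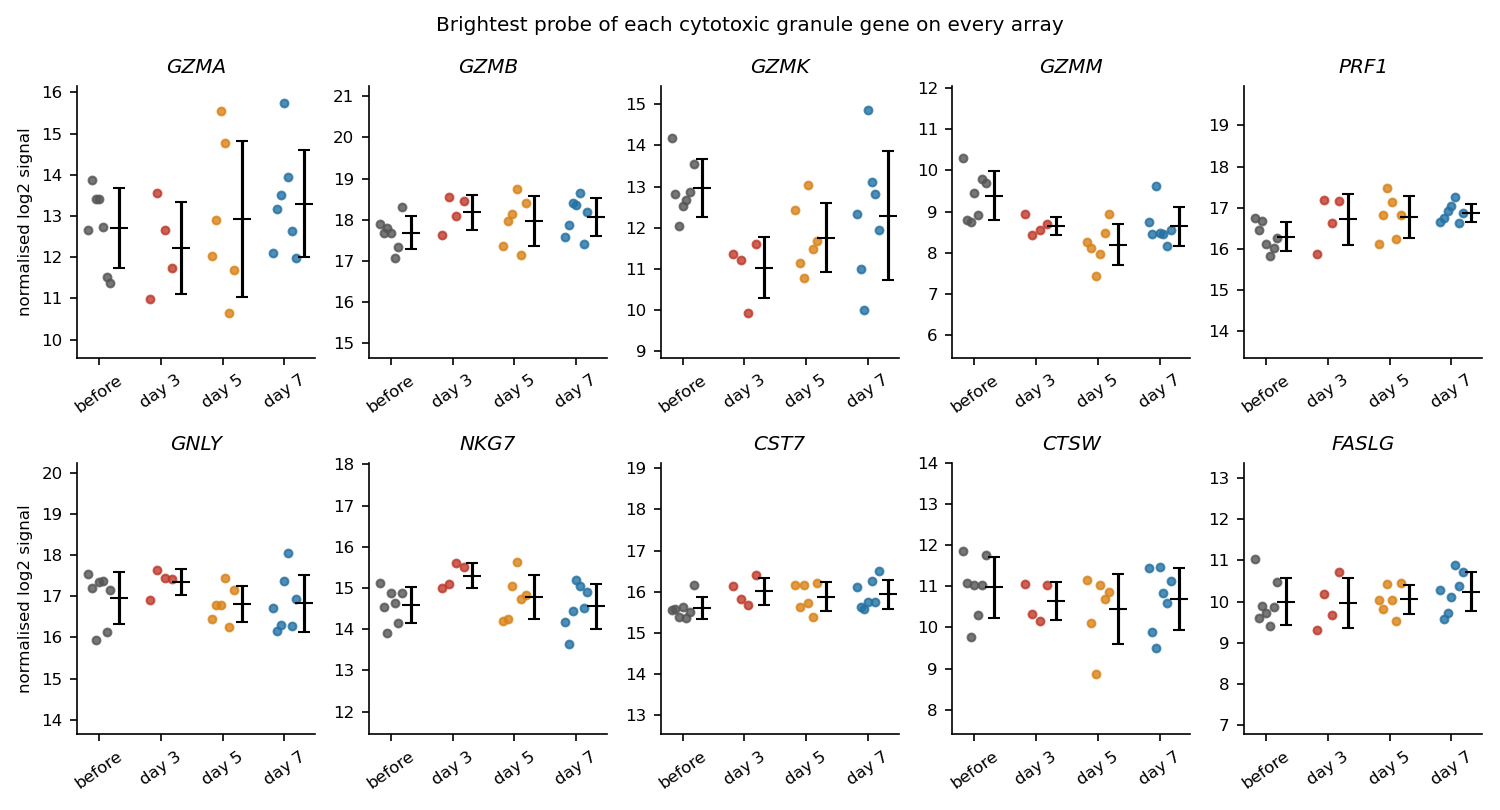
Normalised log2 signal of the brightest probe of each of the 10 genes, 1 point per array, for 7 arrays before irradiation and 4, 6 and 7 arrays at days 3, 5 and 7. The bars are mean ± SD, every panel spans the same log2 range, and levels of different genes cannot be set against each other. The 4 day 3 arrays of GZMK lie below all 7 arrays before irradiation, and in the other genes the groups overlap at day 3.

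GZMK was the 1 granzyme found by name that was called lower, at day 3. Before irradiation its level was 12.04 on the lowest array, 12.82 at the median and 14.19 on the highest. At day 3 the 4 arrays read 11.37, 11.22, 9.94 and 11.60, all below the lowest pre-irradiation array. The change was -1.93 (SE 0.41, 95% interval -2.82 to -1.04), a 3.81-fold lower signal with limma's adjusted p = 0.00408. All 4 animals were lower than their own pre-irradiation sample, by -2.82 to -1.60.

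This call was close to the threshold and was lost in 13 of 20 alternatives, among them 75th percentile scaling, normexp background, no filter on dim probes, all groups in 1 fit, and session or slide as a block. The change stayed between -2.25 and -1.63 over the 20 alternatives. Of all probes, normexp called 139 of 27132 at day 3, session as a block 37 of 27077 and slide as a block 0 of 27034. With 75th percentile scaling, no filter and all groups in 1 fit 3651, 2965 and 4272 probes were called, against 3653 in the main setting. Leaving out any 1 of the animals 1, 2, 4, 5, 6 and 7 left the adjusted p of GZMK between 0.00598 and 0.0200. Within session 2 the change was -1.65, but that setting has 1 pre-irradiation array and called 0 of 27069 probes, so only its size is given. CD8B, which encodes a chain of the CD8 co-receptor of cytotoxic T cells, was also called lower at day 3 (-1.71, SE 0.37, limma's adjusted p = 0.00482). The CD8B call was lost in 14 of 20 alternatives, among them leaving out any 1 of the animals 1, 2, 3, 4, 6 and 7, and its part in the GZMK result was not tested.

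At day 5 GZMK ranged from 10.77 over a median of 11.58 to 13.03, a change of -1.20 (SE 0.39, adjusted p = 0.0275). Of the 6 arrays, 4 lay below all pre-irradiation arrays, and animal 4 alone was above its own earlier level. At day 7 the range had widened to 10 at the lowest, 12.34 at the median and 14.87 at the highest. The change was then -0.66 (95% interval -1.91 to 0.58, adjusted p = 0.426). Animals 1, 2, 3 and 7 were still lower than before irradiation by -2.04 to -1.62, while animals 5 and 6 lay at 0.43 and -0.07 and animal 4 was 2.32 higher, so the SD of GZMK rose from 0.71 before irradiation to 1.56 at day 7.

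GZMM, found by its description, had a negative change in all 3 of its probes on all 3 days, over all arrays. GZMM-a read 8.74 at the lowest, 9.46 at the median and 10.31 at the highest before irradiation. The day 3 arrays read 8.95, 8.43, 8.54 and 8.69, and day 5 ran from 7.44 over 8.18 to 8.93. Below all pre-irradiation arrays lay 3 of 4, 5 of 6 and 6 of 7 arrays on days 3, 5 and 7. The change of GZMM-a was -0.73 (SE 0.30, adjusted p = 0.0715) at day 3, -1.19 (SE 0.29, adjusted p = 0.00605) at day 5 and -0.75 (SE 0.27, adjusted p = 0.0535) at day 7 by limma, and it was not called.

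The dimmer probes of granzyme M differed in size. GZMM-c was called lower at day 5, when its 6 arrays (5.02 to 6.76) all lay below the pre-irradiation range of 6.83 to 9.28. Its change was -1.41 at day 3, -2.03 (SE 0.43, adjusted p = 0.00241) at day 5 and -1.71 (adjusted p = 0.00997) at day 7. GZMM-b changed by -0.65, -1.05 and -0.33, none of these was called, and within session 2 the day 3 change was 0.22. Without animal 3, 4, 6 or 7 the GZMM-c call at day 5 was lost, at adjusted p between 0.00548 and 0.0122, and within session 2, against 1 pre-irradiation array, its change was -1.12. Over all alternatives the day 5 change of GZMM-c ran from -3.09 to -0.56. Granzyme M was called lower at day 5 in 5 of 20 alternatives, by GZMM-a with the stricter filter, all groups in 1 fit, slide as a block or each animal as a block (-1.27, adjusted p = 0.00229), and by the mean of its probes. GZMM-c was called at day 7 with all groups in 1 fit (adjusted p = 0.00236) and without animal 2 (adjusted p = 0.00424).

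GZMB, the granzyme that cleaves after aspartate and activates caspases, did not fall with GZMK. Before irradiation GZMB-a read 17.07, 17.69 and 18.32 at the lowest, median and highest array. The day 3 arrays read 17.62, 18.55, 18.10 and 18.45, and the medians of day 5 and day 7 were 18.06 and 18.18. The groups overlapped on each day. The change was 0.50 (95% interval -0.05 to 1.04, adjusted p = 0.14) at day 3, 0.28 (-0.29 to 0.86, adjusted p = 0.439) at day 5 and 0.38 (-0.10 to 0.87, adjusted p = 0.228) at day 7, so a fall as large as that of GZMK at day 3 lies outside all of these intervals. GZMB-b, which shares 24 bases with it, changed by 0.56, 0.22 and -0.02, so that the probes differed at day 7. At day 7, 3 of the 7 GZMB-a arrays and 0 of the GZMB-b arrays exceeded all pre-irradiation arrays.

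GZMA, a tryptase-like granzyme found by its accession, varied widely between animals. It ran from 11.38 over 12.73 to 13.88 before irradiation. The 4 day 3 arrays read 10.98, 13.56, 12.65 and 11.73, and day 5 ran from 10.64 over 12.47 to 15.54. At day 7 the values were 11.99, 13.16 and 15.75 at the lowest, median and highest array. All of these groups overlapped the pre-irradiation range, and 2 arrays each at days 5 and 7 exceeded it. The change was -0.48 (SE 0.57), 0.22 (SE 0.73) and 0.58 (SE 0.55), with limma's adjusted p of 0.526, 0.845 and 0.464. The animals went opposite ways at day 5, when animals 3 and 4 were 2.12 and 1.36 above their own earlier level and animals 1, 2 and 6 were -0.97 to -0.63 from it. Without animal 3 or animal 4 the mean change at day 5 was -0.19 or -0.04.

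Whether the granzymes shifted against each other was tested directly. The difference between 2 granzyme probes was taken within each array, which removes the constant of the array, and its shift from the pre-irradiation arrays was tested by an exact two-sided permutation of arrays for all 6 pairs on 3 days. These 18 tests were chosen with the values of the genes in view, and the smallest p that the splits allow is 0.00303 at day 3 and 0.000583 on the other days. GZMB minus GZMK was 2.42 higher at day 3, with all 4 arrays above all pre-irradiation arrays (exact p = 0.00303, adjusted over the 18 tests 0.0184), and 1.49 higher at day 5 (exact p = 0.00699, adjusted 0.0252). GZMB minus GZMM was higher by 1.23, 1.47 and 1.13 on days 3, 5 and 7 (exact p = 0.0121, 0.00408 and 0.00408, adjusted 0.0364, 0.0184 and 0.0184). That test exchanges arrays freely and takes no account of the animals that the groups share. When the sign of each animal's own shift was flipped in place of it, a test added after these values were seen, 0 of the 18 passed after adjustment (lowest adjusted p = 0.113) and 5 had an unadjusted exact p under 0.05. With 4 animals at day 3 the exact sign-flip p cannot go below 0.125, which GZMB minus GZMK and GZMB minus GZMM both reached with all 4 animals higher. At day 5 all 6 animals were higher for both differences (exact p = 0.0312, the smallest that 6 animals allow), and at day 7 GZMB minus GZMM was higher in 6 of 7 (exact p = 0.0312). With normexp background the shift of GZMB minus GZMM at day 5 was 0.43 in place of 1.47.

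The shift between GZMK and GZMM depended on the granzyme M probe. With GZMM-a, GZMK minus GZMM shifted by -1.19 at day 3 (exact permutation p = 0.00303, adjusted 0.0184, and exact sign-flip p = 0.125), and all 4 arrays lay below the pre-irradiation arrays. With GZMM-b the shift was -1.28 and 3 of 4 arrays lay below, and with GZMM-c it was -0.52 and 1 of 4 did. GZMB-a minus GZMM shifted by 1.23, 1.14 and 1.91 at day 3 with GZMM-a, GZMM-b and GZMM-c, by 1.47, 1.34 and 2.31 at day 5, and by 1.13, 0.71 and 2.09 at day 7. With GZMB-b and GZMM-b the day 7 shift was 0.31, and 1 of 7 arrays lay above the pre-irradiation arrays. With GZMM-a, at days 5 and 7 the shifts of GZMK minus GZMM were -0.02 and 0.08 (exact p = 0.966 and 0.911), with SDs of 0.89 and 1.89 against 0.40 before irradiation. With GZMM-b they were -0.15 and -0.34, and with GZMM-c 0.82 and 1.04 (unadjusted exact permutation p = 0.0443 and 0.22). The shift of GZMB minus GZMK at day 7 was 1.05 (exact p = 0.132), and none of the 9 shifts of GZMA against the other granzymes passed by permutation of arrays (exact p from 0.1 to 0.924). Within animals, GZMA minus GZMK was higher in 4 of 4, 6 of 6 and 7 of 7 on days 3, 5 and 7, by 1.64, 1.47 and 1.25 on average. Its exact sign-flip p of 0.125, 0.0312 and 0.0156 was on each day the smallest that the number of animals allows, and after adjustment it was 0.188, 0.113 and 0.113. Within session 2, which has 1 pre-irradiation array, GZMB minus GZMK shifted by 2.76 at day 3 and 1.83 at day 5.

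**Figure D2:**
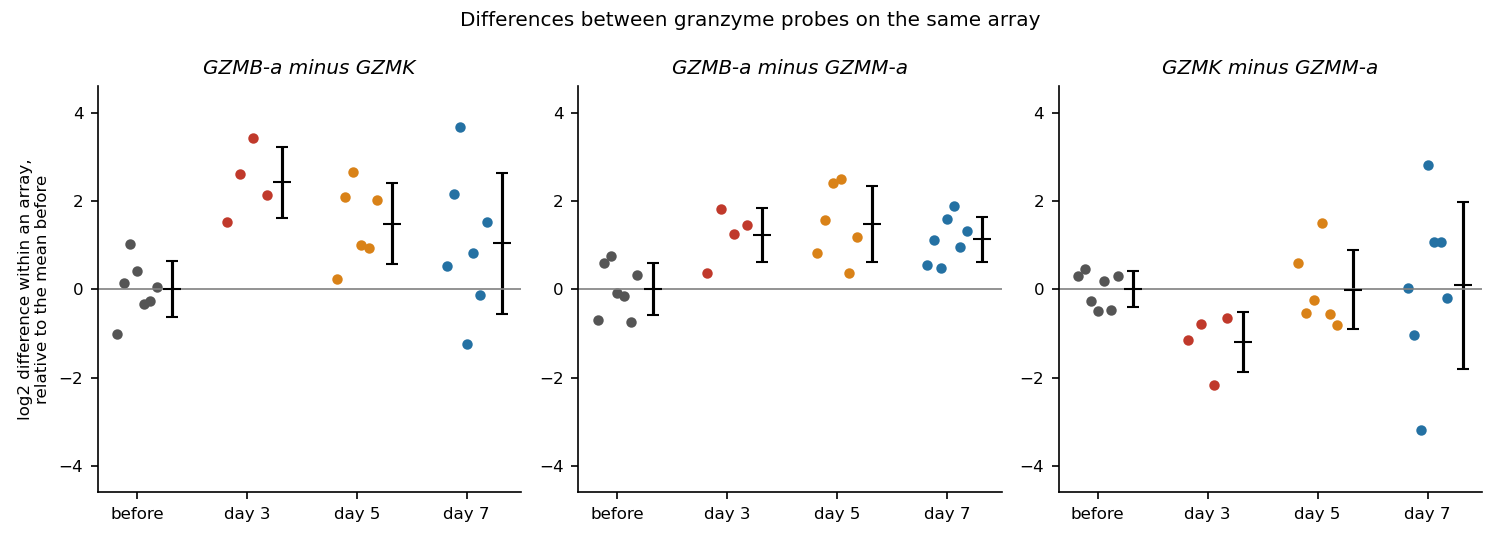
Log2 difference between 2 granzyme probes (GZMB-a, GZMK and GZMM-a) on the same array, drawn relative to its mean on the 7 pre-irradiation arrays, 1 point per array with mean ± SD as bars, for 4, 6 and 7 arrays at days 3, 5 and 7. GZMB minus GZMK lies above all pre-irradiation points on the 4 day 3 arrays, and GZMK minus GZMM-a lies below them there and spreads widely at day 7.

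PRF1 encodes the pore-forming protein, and its changes were positive on all 3 days without passing the threshold. Before irradiation PRF1 read 15.82, 16.26 and 16.75 at the lowest, median and highest array. The day 3 arrays read 15.88, 17.19, 16.64 and 17.16, day 5 ran from 16.13 over 16.83 to 17.48, and day 7 from 16.64 over 16.88 to 17.25. At day 7 the lowest array lay just under the pre-irradiation maximum, and 4 of 7 lay above it. The change was 0.42 (SE 0.27, adjusted p = 0.247), 0.47 (SE 0.24, adjusted p = 0.133) and 0.58 (SE 0.17, adjusted p = 0.0204) on the 3 days. None was called by limma at 0.005, and 6 of 7 animals were higher at day 7 than before. Within session 1 the day 7 change was 0.44 (adjusted p = 0.0783). After quantile normalization in place of the constant per array, 3 of the 8 genes were called higher at day 7 by limma: PRF1 (1.38, adjusted p = 7.96e-05), CST7 (1.02, adjusted p = 0.00142) and GZMB (1.23, adjusted p = 0.0025). Of all probes, 1160 of 27138 were called higher in that setting.

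GNLY encodes granulysin, and no shift in it was detected at this number of arrays. It read 15.94 at the lowest, 17.20 at the median and 17.53 at the highest array before irradiation. The day 3 arrays read 16.90, 17.64, 17.45 and 17.41, and the medians at days 5 and 7 were 16.78 and 16.72. All groups overlapped. The change was 0.40, -0.14 and -0.12 with SEs of 0.32, 0.29 and 0.33, and limma's adjusted p was 0.355, 0.742 and 0.814.

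NKG7 had 3 probes that did not give the same size of change. NKG7-a read 13.91, 14.64 and 15.13 before irradiation at the lowest, median and highest array, and 14.99, 15.09, 15.61 and 15.51 at day 3. Its change was 0.70 (SE 0.24, adjusted p = 0.0415) at day 3, 0.19 (SE 0.26) at day 5 and -0.04 (SE 0.26) at day 7, so that its mean was back at the earlier level on the last day. NKG7-c, which shares 22 bases with NKG7-a, read 11.05, 11.80 and 12.44 before irradiation and 12.14, 12.77, 13.43 and 13.33 at day 3. Its change was 1.17 (SE 0.31, adjusted p = 0.0126), 1.06 (SE 0.33, adjusted p = 0.0232) and 0.95 (SE 0.29, adjusted p = 0.0252) on the 3 days. NKG7-b, which lies apart from the other probes, gave 0.98, 0.76 and 0.70 (adjusted p = 0.0101, 0.0393 and 0.0692). None of the 3 probes was called at 0.005 on any day, and all 3 had a positive change at days 3 and 5. At day 7, 5 of 7 arrays of NKG7-b and of NKG7-c and 1 of 7 of NKG7-a lay above all pre-irradiation arrays.

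**Figure D3:**
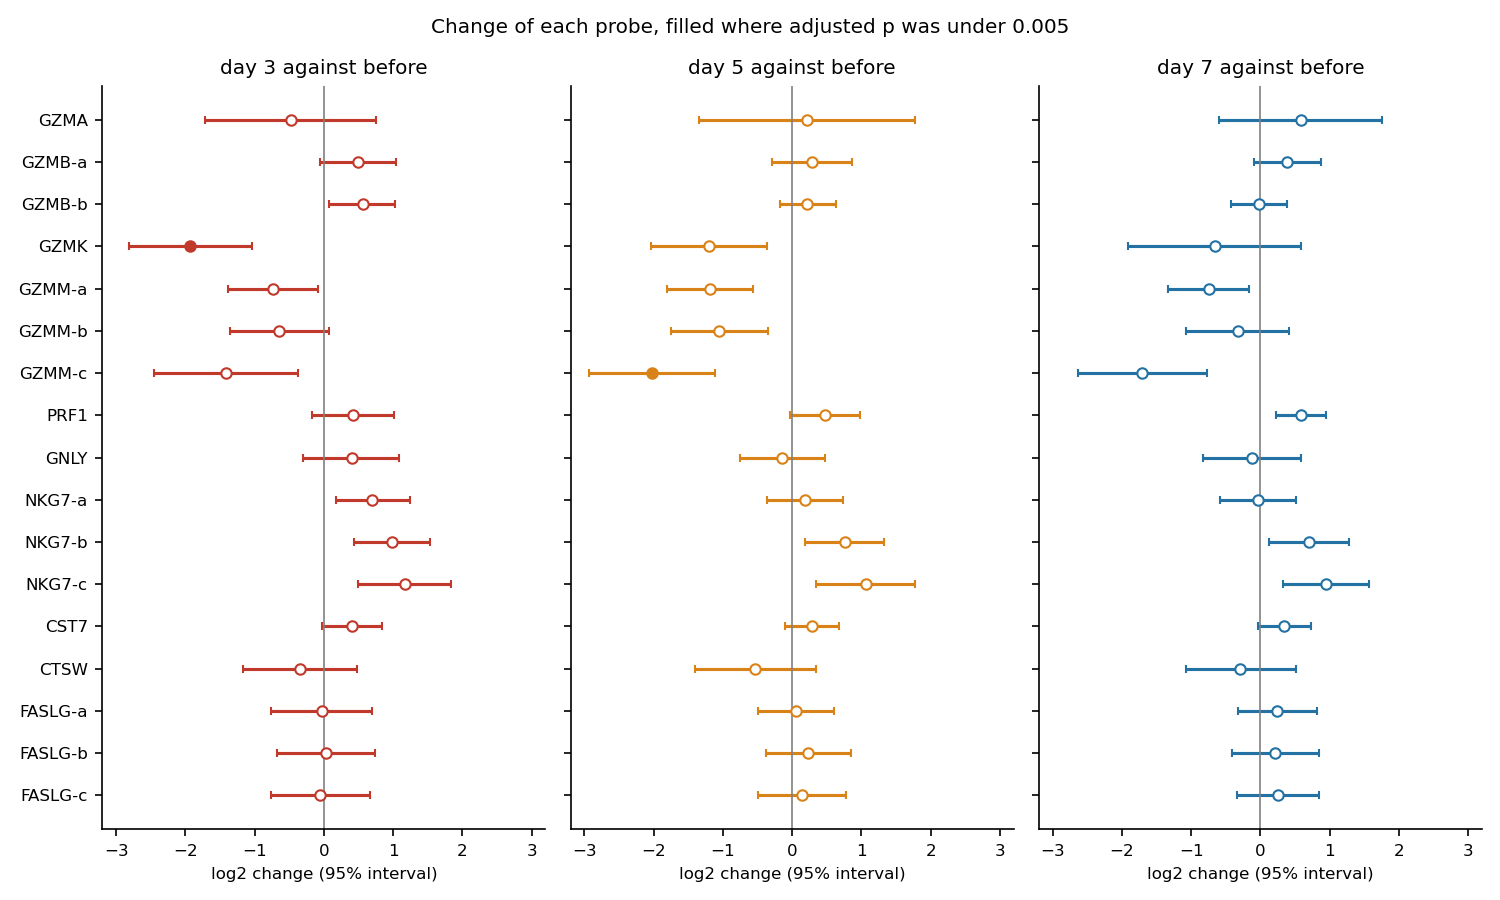
Log2 change against the 7 pre-irradiation arrays of all 17 probes at days 3, 5 and 7, as points with the 95% interval from limma, filled where the adjusted p was under 0.005 and open otherwise. GZMK at day 3 and GZMM-c at day 5 are the filled points, the GZMM probes lie left of 0 on all days, and NKG7-a lies nearer 0 than NKG7-b and NKG7-c at days 5 and 7.

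CST7 encodes cystatin F, which holds back the proteases that mature granzymes. It read 15.37, 15.56 and 16.17 before irradiation at the lowest, median and highest array, and 16.15, 15.83, 15.67 and 16.41 at day 3. Its change was 0.41 (SE 0.20, adjusted p = 0.119), 0.28 (SE 0.18, adjusted p = 0.248) and 0.34 (SE 0.18, adjusted p = 0.176), and it was not called. All 4 animals on day 3, 5 of 6 on day 5 and all 7 on the last day were above their own pre-irradiation level, by at most 0.89. With normexp background correction of the mean spot signals, the small positive changes of GZMB, PRF1, NKG7, CST7 and GZMA at day 5 turned negative, to between -0.28 and -0.07.

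CTSW encodes cathepsin W, a papain-like cysteine protease of cytotoxic lymphocytes. Its level was 9.77 at the lowest, 11.04 at the median and 11.86 at the highest before irradiation, and 11.05, 10.33, 10.15 and 11.02 at day 3. These ranges overlapped, and the change was -0.34 (SE 0.38), -0.53 (SE 0.40) and -0.29 (SE 0.37) with adjusted p of 0.503, 0.333 and 0.601. Taken within animals the values were closer together: all 4 animals were lower at day 3 than before, by -0.89 to -0.72. With each animal as a block, the change was -0.80 (adjusted p = 0.0211) at day 3 and -0.64 (adjusted p = 0.019) at day 5, still above the threshold. With the 1 pre-irradiation array of session 2 alone the sign turned, to 0.33 at day 3 and 0.14 at day 5.

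FASLG, the member that kills through a receptor and not through granule proteins, had group means within 0.24 of the earlier level and went different ways in single animals. FASLG-a read 9.41, 9.87 and 11.04 before irradiation at the lowest, median and highest array, and 9.31, 10.19, 9.67 and 10.71 at day 3. The medians at days 5 and 7 were 10.05 and 10.29. All groups overlapped, and the change was -0.03 (95% interval -0.76 to 0.70), 0.05 (-0.50 to 0.60) and 0.24 (-0.33 to 0.81). Animal 1 lay below its own pre-irradiation level by -1.72, -0.99 and -0.75 on the 3 days, animal 5 was 1.48 higher at day 7, and the other animals differed from theirs by -0.35 to 0.59. FASLG-b and FASLG-c, which share 59 bases, gave changes from -0.05 to 0.26 over the 3 days. The receptor gene FAS was called higher on all 3 days and is described with the targets.

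The days after irradiation were compared with each other by the same test. Of the 8 genes, 0 were called between days 3 and 5, where 0.0367% of all named genes were called, 0 between days 3 and 7, where 1.63% were, and 0 between days 5 and 7, where 0.00918% were. An unadjusted p under 0.05 was met by 0, 1 and 0 of the 8 genes. The 1 was NKG7-a, which was lower at day 7 than at day 3 by -0.74 (SE 0.29, adjusted p = 0.103). GZMK was 0.72 (SE 0.46) higher at day 5 than at day 3 and 1.26 (SE 0.74, 95% interval -0.34 to 2.87) higher at day 7 than at day 3, and neither difference was called (adjusted p = 0.634 and 0.255). The order of the GZMK group means was day 3, day 5, day 7 and pre-irradiation, from 11.03 over 11.75 and 12.29 to 12.96, and no neighbours in that order differed beyond their spread.

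Granule maturation and exocytosis genes, which sort granzymes and fuse the granule with the cell surface, were counted from a list of 20 genes, 19 of them measured. At day 3, 5 of 19 were called higher and 0 lower, at day 5, 7 higher and 1 lower, and at day 7, 2 higher and 0 lower, with median changes of 0.87, 0.61 and 0.30. Of all named genes, 5.95%, 6.24% and 2.67% were called higher and 7.58%, 9.11% and 7.18% lower on these days, with medians of 0, 0 and -0.01. Under normexp background 0 of the 19 were called on any day, and of all probes, 27132 at day 3 and 27138 later, 139, 239 and 315 were. With session or slide as a block 0 of the 19 were called at days 3 and 5. Of all probes, session as a block called 37 at day 3 and 385 at day 5, and slide as a block 0 and 454. Counts of 0 are thus near the background of these settings. STXBP2, which binds the syntaxin of the fusion step, was 1.67 (SE 0.19, adjusted p = 0.000138) higher at day 3 and 1.35 at day 5, and all 4 and all 6 arrays lay above the pre-irradiation arrays. Its partner STX11 was called at day 5 (1.49, SE 0.26), as was IGF2R (1.62, SE 0.31), a mannose 6-phosphate receptor. LYST, which controls granule size, was called on all 3 days (1.24, 1.26 and 1.0). VAMP8, a vesicle protein of the fusion machinery, was the 1 gene called lower, at day 5 (-1.06). These genes also act in other blood cells. Of 9 neutrophil and 5 monocyte marker genes, the median change was 0.93 and 0.97 on day 3, 0.98 and 0.81 on day 5, and 0.75 and 0.87 on day 7, and their part in the list was not tested.

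Of 16 target and inhibitor genes, on which granzymes and FAS ligand act, 12 were tested. Called were 2 lower and 2 higher on day 3, 1 lower and 3 higher on day 5, and 0 lower and 3 higher on day 7, with median changes of 0.21, 0.39 and 0.24. The shares of all named genes called lower were 7.58%, 9.11% and 7.18%, and those called higher 5.95%, 6.24% and 2.67%. Under normexp none of the 12 was called on any day, and with session or slide as a block none was at days 3 and 5. Of all probes, normexp called 139 of 27132, 239 of 27138 and 315 of 27138 on days 3, 5 and 7. Session as a block called 37 and 385 at days 3 and 5 and slide as a block 0 and 454, so 0 of 12 is near the background there. FAS, the receptor of FAS ligand and a known target of p53, was called higher on all 3 days, by 1.48 (SE 0.25, adjusted p = 0.0013), 1.62 (SE 0.26) and 1.02 (SE 0.22). At days 3 and 5 every FAS array lay above all pre-irradiation arrays. CASP10, a caspase recruited to death receptors, was called at days 5 and 7 (1.10 and 0.93), and CFLAR, which blocks that recruitment, at day 5 (1.13, SE 0.22). PARP1, a DNA repair enzyme cleaved by caspases, was called lower at day 3 (-1.12, SE 0.19, adjusted p = 0.00124).

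The inducers, which are cytokines, cytokine receptors and transcription factors that turn the granule genes on, were a list of 19 genes with 18 measured. Called higher were 1, 4 and 3 genes on days 3, 5 and 7, 0 were called lower, and the median changes were 0.64, 0.73 and 0.63. Without IL18R1, which is described below, the medians were 0.63, 0.68 and 0.49. Of all named genes 5.95%, 6.24% and 2.67% were called higher and 7.18% to 9.11% lower, so that 1 of 18 at day 3 is near the background. With session or slide as a block or under normexp, 0 of the inducers were called at days 3 and 5. Of all probes, session as a block called 37 of 27077 at day 3 and 385 of 27078 at day 5. Slide as a block called 0 of 27034 and 454 of 27076 on these days, and normexp 139 of 27132 and 239 of 27138. A count of 0 of 18 is therefore near the background of these settings. IL18RAP, a chain of the interleukin 18 receptor, was called at day 5 (1.69, SE 0.38) and day 7 (2.85, SE 0.44, adjusted p = 0.000331), when all 7 arrays exceeded the pre-irradiation arrays. IL18R1, its partner chain, was not well above background on any pre-irradiation array and was on 2 of 6 arrays at day 5 and 3 of 7 at day 7, so no fold is given. It entered the test only through the irradiated arrays where it was high, so no p is given for it, and without it 2 of 17 inducers were called higher at day 7. IL12RB1, a chain of the interleukin 12 receptor, was called on all 3 days (1.33, 1.13 and 1.24), and PRDM1, a transcription factor of effector cells, at day 5 (0.89, SE 0.20). The 8 granule genes found by name included none called higher on these days. Median changes of the neutrophil marker genes were 0.93, 0.98 and 0.75 on these days, and those of the NK cell marker genes -0.18, -0.15 and -0.06. The part of these and other blood cells in the inducer list was not tested.

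**Figure D4:**
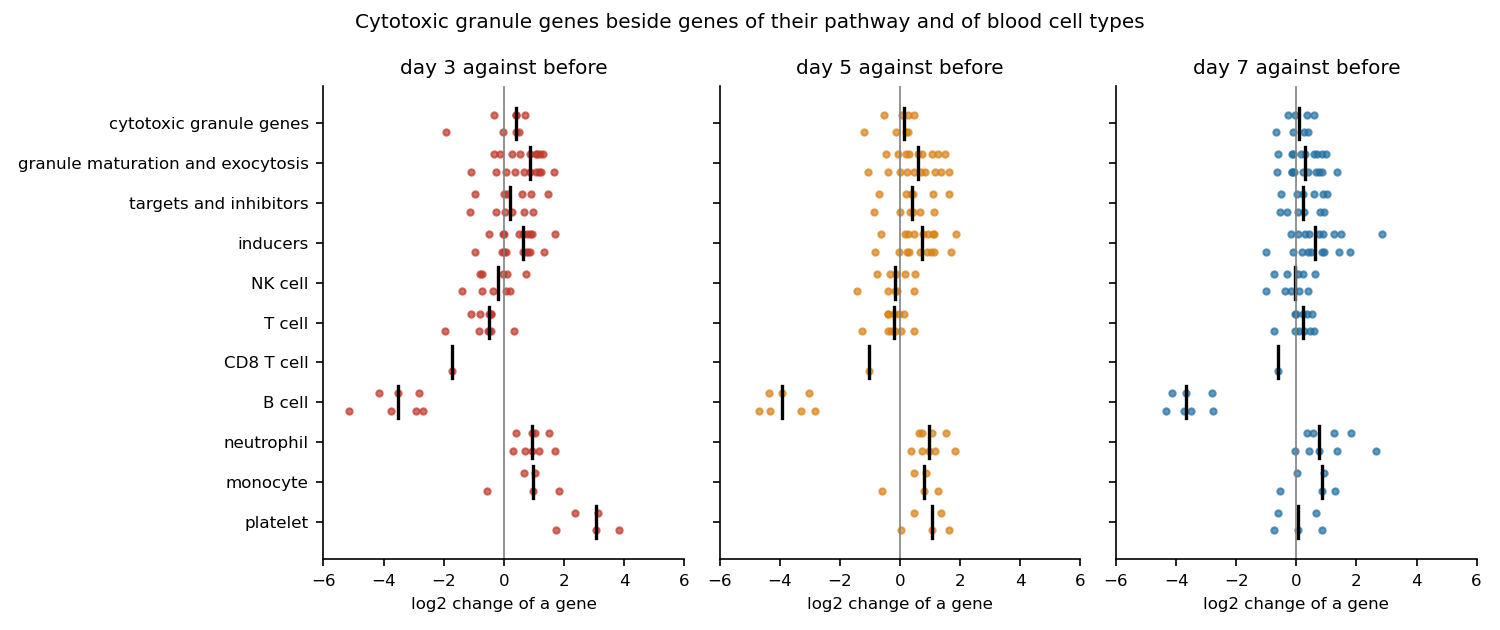
Log2 change of each gene against the 7 pre-irradiation arrays at days 3, 5 and 7, 1 point per gene by its brightest probe, for the 8 cytotoxic granule genes found by name, the pathway lists and marker lists of blood cell types, with a black line at each median. The B cell genes lie between -5.14 and -2.69 at day 3, and the cytotoxic granule genes apart from GZMK lie between -0.34 and 0.70 on that day. The lowest B cell gene, FCRL1, was well above background on 2 of the 4 day 3 arrays, so the size of its change is uncertain.

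The marker lists place the granule genes beside the cells of whole blood. The mean level of the 8 granule genes was 13.93 to 15 on the pre-irradiation arrays, and it spanned 14.15 to 14.78 on day 3, 13.93 to 14.85 on day 5 and 13.81 to 15.02 on day 7. Of 10 NK cell marker genes, 0, 1 and 0 were called lower and 0 were called higher at days 3, 5 and 7, with median changes of -0.18, -0.15 and -0.06. Their mean level was 9.10 to 9.78 before irradiation and 8.50 to 9.88 at day 3. The gene called was XCL1, a chemokine of activated NK and CD8 T cells (-1.43, SE 0.28, at day 5). Of 11 T cell marker genes, 1, 1 and 0 were called lower, with median changes of -0.50, -0.19 and 0.22, and their mean level was 11.39 to 11.99 before irradiation and 10.67 to 11.58 at day 3. Since 7.58%, 9.11% and 7.18% of all named genes were called lower on days 3, 5 and 7, the counts of 0 or 1 in the NK and T cell lists are near the background. The T cell gene called at day 3 was IL7R, a survival receptor of naive and memory T cells (-1.97, SE 0.21, at day 3). All 7 B cell marker genes tested were called lower on each day, with median changes of -3.53, -3.92 and -3.67, and their mean level of 10.72 to 11.09 before irradiation was 6.69 to 8.18 at day 3. Of these 7 genes, 4 were well above background on every array. All 6 erythroid genes were called lower on each day, although SLC4A1 was well above background on no day 5 array, and without it the count is 5 of 5. Of the platelet genes, 4 of 4 were called higher at day 3 with a median of 2.72, leaving aside GP1BA, which was well above background on no pre-irradiation array. With scan session as a block, 2 of the B cell genes and 0 of the erythroid and platelet genes were called at day 3. With slide as a block, or within session 2, 0 of all 3 lists were called on that day, and these settings called 0 of 27034 and 0 of 27069 probes in all. The part of these cell types in the granule gene levels was not tested.

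The genes most like the granule genes were sought by Pearson's r over all 24 arrays with the mean of the 8 standardised granule genes, as a description only, since the arrays share slides, sessions and animals. The 8 highest were ID4 (0.749), DNAJC1 (0.714), KIR3DH5 (0.705), KIR1D (0.698), MCOLN2 (0.693), COQ2 (0.685), ACOT7 (0.678) and IL12RB2 (0.677). KIR3DH5 and KIR1D are killer cell immunoglobulin-like receptor genes, and IL12RB2 encodes a chain of the interleukin 12 receptor. None of the 8 was called against pre-irradiation on any day. Each granule gene was then set against the mean of the other granule genes, so that it was no part of the mean. FASLG (0.704), GNLY (0.663) and GZMB (0.607) gave the highest r and GZMK (0.269) the lowest of the 8, while GZMA and GZMM, which were not found by name, gave 0.244 and -0.013.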

How the data were processed

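RNA of PAXgene whole blood was globin-depleted, labelled with Cy3 and hybridised to 24 one-colour Agilent rhesus arrays, 4 per slide, while the study's methods name a human array. Per the file headers the authors' scanner output was made with Agilent Feature Extraction 12.0.2.2 (10.7 per the labels), with probe positions on rheMac2. Its processed signal is a background-subtracted intensity on a linear scale, and the deposited series matrix holds log2 of that signal plus 1 constant per array, here an alternative that lacks the CST7 and GZMB-b probes.

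Here log2 of the processed signal, without flagged spots, was averaged over the spots of a probe, and 1 constant per array, its median log2 difference from the array of middle brightness, was subtracted. The 27138 probes well above background on at least 4 arrays were tested, 48.3 to 61.2% of probes being well above background on an array. The number of arrays limits the precision. Comparisons of each day with pre-irradiation and between days used limma 3.58.1 in R 4.3.3 (lmFit and eBayes, 2 groups at a time, two-sided), and probes were called at a Benjamini-Hochberg adjusted p under 0.005. A gene's brightest tested probe has the highest mean level. Granzyme pairs were tested by exact permutation of arrays, and by exact sign flips within animals, in Python 3.11.15. The code was tested on simulated data.

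The scanner output named 23054 of the 43603 probes, and 898 more were named through their accession. The genes named were the granule genes with all their probes, at most the 4 called genes with the largest change from each of 3 pathway lists, and the 8 genes most like the granule genes. VAMP8 was added after its values were seen, as were the marker genes CD8B, IL7R and XCL1, each the called gene of its list. The members and lists were chosen with earlier results of these data known. Promoter and protein sequences were not analysed here.

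The replicate numbers pair the samples: of the 8 animals the study's sample list gives arrays of 7, with the sexes that the labels give, and same-numbered arrays deviated together from their group means, with r from 0.132 to 0.648 over the 6 comparisons. Each pre-irradiation array shared its slide with the day 7 array of the same number, and the part of the slide in that comparison was not tested. Alternatives covered the scaling, background, filter, probe choice, shared fit, replicate block, scan session, slide and leaving out each animal.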

Additional observations from a re-analysis of the deposited data

Results flagged for a closer look

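The spread within each group was examined for the brightest probe of the 10 genes in 4 groups, 40 groups in all, and 2 held an array far from the others by Dixon's test, where chance flags about 1 in 20 groups. The CST7 level of pre-irradiation animal 7 was 16.17, against 15.62 on the next array. The GZMM level of animal 3 at day 7 was 9.62, against 8.74 on the next array, and this was the 1 animal whose GZMM level was above its own pre-irradiation level at day 7.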

How the results depend on the processing

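The count of 1 gene called at day 3 (GZMK) stayed at 1 under quantile normalization, the deposited matrix, the stricter filter, kept flagged spots, the mean of a gene's probes and the replicate block. It was 0 with 75th percentile scaling, normexp background, no filter on dim probes, all groups in 1 fit, scan session as a block and slide as a block, and from 0 to 1 with 1 animal left out. The GZMK change itself stayed between -2.25 and -1.63. Of all probes at day 3, normexp called 139, session as a block 37 and slide as a block 0. At day 7, quantile normalization called 3 genes higher, and of all 27138 probes it called 1160 higher and 1366 lower. The other counts of called granule genes, at day 5 and between days, were 0 under every alternative run. With the replicate block, which uses the pairing by animal, the count at day 3 was 1, GZMM-a was called at day 5 (-1.27), and no other call of a granule gene changed.

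Changes that were not called over all arrays turned sign as follows, and the causes were not tested. With 75th percentile scaling FASLG-a at day 3 was 0.02, FASLG-c 0 and, at day 7, NKG7-a 0.04 and GZMB-b 0.06. With the deposited matrix FASLG-a at day 3 was 0, and with the mean of a gene's probes NKG7 at day 7 was 0.54. With normexp background GZMA (-0.26), GZMB-a (-0.24), GZMB-b (-0.27), PRF1 (-0.07), NKG7-a (-0.27), FASLG-a (-0.03) and CST7 (-0.28) turned at day 5, FASLG-a (0.20) and FASLG-c (0.02) at day 3, and GNLY (0.03), NKG7-a (0.12) and GZMB-b (0.14) at day 7. With quantile normalization GNLY was 0.41 at day 5 and 0.74 at day 7 and NKG7-a 0.43 at day 7, while GZMB-b at day 7 not only turned but was called higher (0.86, limma's adjusted p = 0.0042). With the replicate block FASLG-a was -0.05 at day 5 and FASLG-b -0.18 at day 3. With session as a block, or session 2 only, GNLY (-0.02), FASLG-a (0.56), FASLG-c (0.73), CTSW (0.33) and GZMM-b (0.22) turned at day 3 and CTSW (0.14) at day 5, and with session 1 only FASLG-b was -0.06 at day 7. With slide as a block FASLG-a (0.78), FASLG-c (1.0), CTSW (0.27) and GZMM-b (0.33) turned at day 3, and FASLG-a (-0.37), FASLG-b (-0.10), FASLG-c (-0.14) and GNLY (0.03) at day 5.

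With 1 animal left out, GZMA at day 5 ran from -0.19 to 0.48, GNLY from -0.30 to 0.03 (day 5) and -0.26 to 0.03 (day 7), NKG7-a from -0.13 to 0.11 and GZMB-b from -0.14 to 0.06 at day 7, FASLG-a from -0.20 to 0.36 (day 3) and -0.05 to 0.23 (day 5), FASLG-b from -0.20 to 0.34 (day 3) and -0.06 to 0.41 (day 7), and FASLG-c from -0.27 to 0.28 (day 3) and -0.04 to 0.38 (day 5).

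The shift of GZMB minus GZMK kept its sign under all alternatives, from 2.16 to 3.12 at day 3 and 1.12 to 2.13 at day 5. Sign flips over animals, the other probes of GZMB and GZMM and the counts without IL18R1, GP1BA or SLC4A1 were added after the data were seen. By sign flips none of the 6 pair shifts that passed the permutation test passed, which at day 3 no value could, since 4 animals allow no p under 0.125. At day 5 the shifts already had the smallest exact sign-flip p that 6 animals allow (0.0312, adjusted 0.113), so that failure says little. The within-animal sizes of these 6 shifts were 2.53 (day 3) and 1.43 (day 5) for GZMB minus GZMK, 1.2, 1.45 and 1.13 for GZMB minus GZMM on days 3, 5 and 7, and -1.33 for GZMK minus GZMM (day 3). Over the alternatives, the shift of GZMB minus GZMM at day 5, 1.47 between group means in the main setting, ran from 0.43 (normexp) to 2.54 (slide as a block). Pathway list counts also moved: granule maturation and exocytosis from 0 to 8, 0 to 9 and 0 to 5 genes called on days 3, 5 and 7, targets and inhibitors from 0 to 4, 0 to 6 and 0 to 3, and inducers from 0 to 2, 0 to 5 and 1 to 6. Marker counts at day 3 ran from 0 to 7 for B cell, 0 to 6 for erythroid, 0 to 5 for platelet and 0 to 1 for CD8 T cell genes, and B cell counts from 2 to 7 (day 5) and 6 to 7 (day 7).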
